A study of Mus musculus with 4 samples.

Results

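Cells of the untreated T11-Apobec tumour were compared with cells of the untreated KPB25Luv tumour, class by class. Cells were kept when they had at least 200 genes with a count, at least 500 unique molecular identifiers (UMIs, each standing for 1 captured RNA molecule) and at most 10% of UMIs from mitochondrial genes. This left 10321 T11-Apobec cells and 6475 KPB25Luv cells, together 16796 of the 28200 kept cells of the series, which holds 30090 cell barcodes in 4 libraries. The series profiled mouse models of triple-negative breast cancer with and without checkpoint antibodies, by droplet single-cell RNA sequencing of whole dissociated tumours. T11-Apobec tumours grew in BALB/c females and KPB25Luv tumours in FVB/NJ females, in both cases after injection of tumour cells into mammary gland number 4, and therapy was assigned at a diameter of 5 mm. The 2 untreated libraries received no therapy, and the 2 treated libraries, used here only as a second pair of tumours, came from mice given anti-PD1 (10 mg/kg) with anti-CTLA4 (100 ug) for 7 days. Each group is 1 library, the number of animals behind a library is not given in the sources used here, and host strain and tumour line differ together, so that their parts cannot be told apart. No p-value is therefore given, and every interval below covers counting error only.

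Tumours of this kind hold malignant cells among T cells, B cells, natural killer (NK) cells, macrophages, neutrophils and endothelium, and lines differ widely in that mixture. Claudin-low mammary tumours are known for mesenchymal features and for loss of epithelial junction genes, while other mammary carcinomas keep keratins and junction proteins. Among T cells, naive and memory cells express Tcf7 and Lef1, whereas cells that meet antigen for long periods express inhibitory receptors such as PD1 (Pdcd1) and Lag3. Interferons induce a shared set of antiviral genes in nearly all cell types, through transcription factors that read repeated GAAA elements in promoters.

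Each cell was put into the class whose list of 8 marker genes had the most members with a UMI, provided that at least 2 had one and that the list led every other list by 2; other cells stayed unassigned. The median kept cell held 7815 UMIs in T11-Apobec and 9704 in KPB25Luv. Unassigned cells were 25.4% of the T11-Apobec cells and 36.4% of the KPB25Luv cells, with medians of 12147 and 19201 UMIs. Between the untreated libraries 108 kept barcodes were shared, 1.67% of the smaller library. For each of the 6 host classes, 6 of 6 marker genes held back from the assignment were at least 2-fold higher in the class than in the other assigned cells. This held in both libraries, and unassigned cells were left out of the check. For NK cells the check used the 393 and 44 cells with a lead of 2 markers. The tumour classes met the check less fully. Of the mesenchymal check markers, Zeb1, Col6a1 and Cdh2 passed in T11-Apobec (3 of 6) and Vim, Zeb2 and Cav1 did not, and of the epithelial ones Krt19, Cdh1, Cldn3 and Spint2 passed in KPB25Luv (4 of 6) and Krt17 and Trp63 did not. The transcript of the neomycin resistance gene, an inserted selection marker, had 3449 UMIs over all barcodes of T11-Apobec and 0 over those of KPB25Luv. In T11-Apobec 1666 kept cells had a UMI of it. RNA of other cells was not spread evenly: the 8 epithelial markers together made up 797 CPM (UMIs scaled to a common total of the class) in KPB25Luv T cells against 31.8 CPM in T11-Apobec T cells, and 737 against 5.74 CPM in macrophages. Its part in the gene differences of the host classes was not tested, except where a count is also given for genes at least as high in the class as in the whole library.

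Among the host classes, the 2 untreated tumours differed most by ratio of shares in their neutrophils, NK cells and T cells. T cells were 3.71% of kept cells in T11-Apobec (exact 95% binomial interval 3.35 to 4.09, 383 cells) and 18.0% in KPB25Luv (17.1 to 19.0, 1168 cells). Neutrophils, short-lived phagocytes, were 1.72% (178 cells) in T11-Apobec and 11.4% (739 cells) in KPB25Luv. Both classes were thus several times rarer in the T11-Apobec tumour. Macrophages went the other way, at 25.7% (2657 cells) against 8.43% (546 cells). NK cells, cytotoxic lymphocytes without a rearranged antigen receptor, were 3.81% (393 cells) against 0.680% (44 cells). Endothelial cells were 2.91% (300 cells) against 1.13% (73 cells), and B cells 1.51% (156 cells) against 2.69% (174 cells). None of these 6 pairs of intervals overlapped, but shares from single libraries also carry the spread between tumours and dissociations, which was not measured. The shares also rest on the lead rule, which left 25.4% of T11-Apobec and 36.4% of KPB25Luv cells unassigned. With a lead of 1 marker NK cells numbered 424 and 66. Unassigned cells differed in make-up between the libraries. The mesenchymal list had the most markers in 1918 of 2620 in T11-Apobec, and the epithelial list in 939 of 2360 in KPB25Luv. Ties went to the earlier list. Whether the rule leaves out cells of each host class equally in the 2 libraries was not tested. Cells of the mesenchymal tumour list were 33.7% in T11-Apobec (3481 cells) and 0.772% in KPB25Luv (50 cells). Cells of the epithelial list were 0.572% (59 cells) and 19.8% (1280 cells).

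**Figure D1:**
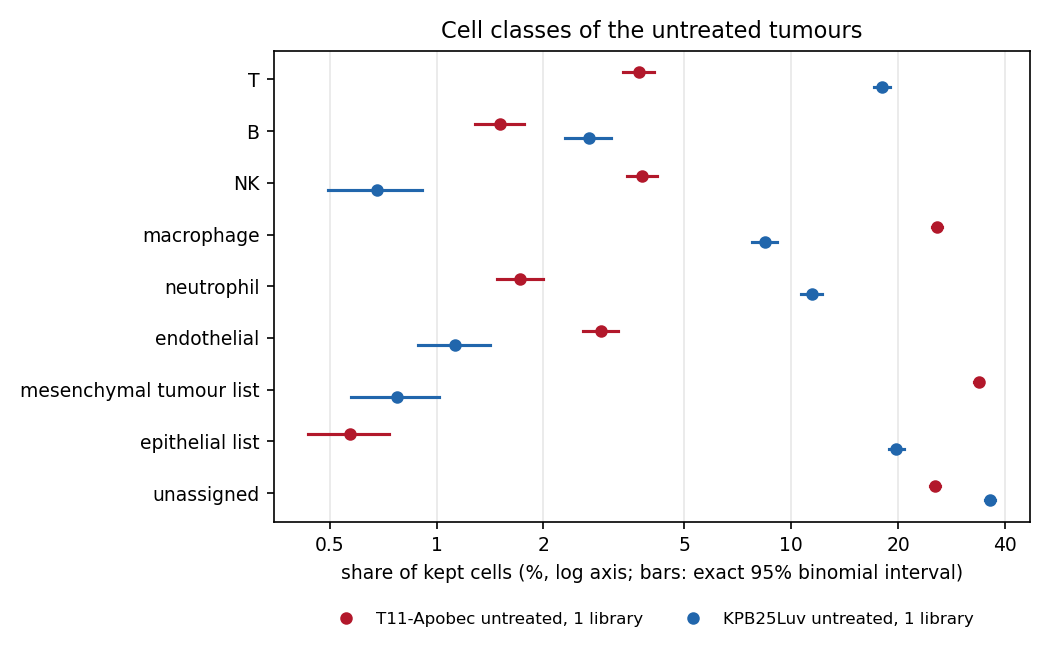
Share of kept cells in each class in the untreated T11-Apobec library (red) and the untreated KPB25Luv library (blue), on a log axis, with exact 95% binomial intervals as bars. T cells (3.71% and 18.0%) and neutrophils (1.72% and 11.4%) lie to the left in T11-Apobec, macrophages (25.7% and 8.43%) to the right.

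Expression was compared on UMIs summed over the cells of a class, as CPM of the class total, and a gene was measured when the 2 libraries together held at least 50 UMIs. Ratios are log2 of T11-Apobec over KPB25Luv after adding 0.5 counts, given with an exact conditional 95% interval, and a gene was counted as apart at 2-fold. Marker genes that set the classes were left out.

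T cells of the T11-Apobec tumour carried more transcript of inhibitory receptors and of effector genes, and less of naive and memory genes. Of 7975 genes measured in T cells, 443 (5.55%) were at least 2-fold higher in T11-Apobec and 531 (6.66%) at least 2-fold lower, and the median gene stood at 0.04. When only genes at least as high in T cells as in their whole library were counted, 3978 remained. Of these 330 (8.30%) were higher and 148 (3.72%) lower, with a median of 0.22. Of 8 measured members of the list of inhibitory receptors and exhaustion, 6 were higher and 0 lower, with a median of 1.95, which was also 1.95 under that restriction. Pdcd1, the receptor PD1, stood at 237 CPM in T11-Apobec and 35.5 CPM in KPB25Luv, a log2 ratio of 2.74 (2.45 to 3.03). Lag3, an inhibitory receptor that binds MHC class II, stood at 94.2 and 9.12 CPM (3.37, 2.85 to 3.90). Both whole intervals thus lay above 2-fold. Tox, a transcription factor of chronically stimulated T cells, was at 104 against 30.7 CPM (1.76), and Ctla4, the other receptor targeted in the treated mice, at 78.3 against 32.3 CPM (1.29). Cd160, which can also act as an inhibitory receptor, showed no such difference, at 51.4 and 49.6 CPM (0.06, -0.45 to 0.52). Batf (0.38) was likewise within 2-fold.

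Among cytotoxicity genes, 4 of 10 measured in T cells were higher and 0 lower, with a median of 0.76. Gzmk, a granzyme protease of memory-like effector cells, was at 91.8 CPM in T11-Apobec and 1.86 CPM in KPB25Luv, from 75 and 11 UMIs (5.57, 4.71 to 6.69). Gzmb, the granzyme of fully armed killer cells, was at 132 and 25.5 CPM (2.38). Ifng, which encodes interferon-gamma, was at 80.8 and 12.8 CPM (2.66), although 38.2% of its KPB25Luv UMIs came from 1 cell. Other members differed little, among them Ctsw (0.40), Cst7 (0.39), Serpinb9 (0.07) and Lamp1 (-0.24). Ccl4, a chemokine of activated lymphocytes, was at 937 and 41.5 CPM (4.49), but 45.7% of its T11-Apobec UMIs came from 1 of 61 cells with a UMI. Ms4a4b, a membrane protein of lymphocytes, was spread more widely, at 980.3 and 71.3 CPM (3.78). Serpina3g (4.87), an inhibitor of proteases in activated T cells, and Nrgn (4.77) were the other genes with the highest ratios. The NK marker list summed to 486 CPM in the T class of T11-Apobec and 297 CPM in that of KPB25Luv, with 0 of its 8 genes at 0 in either, and its part in the cytotoxic difference was not tested.

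Naive and memory genes were lower. Of 11 measured, 0 were higher and 7 lower, with a median of -1.57, and -1.39 over the 10 members at least as high in T cells as in their library, of which 6 were lower. Tcf7, a transcription factor that keeps T cells able to renew, was at 36.7 CPM in T11-Apobec and 149 CPM in KPB25Luv (-2.0, -2.59 to -1.49). Lef1, its relative, was at 36.7 and 137 CPM (-1.88). Dapl1 (-2.16), Satb1 (-1.65) and Igfbp4 (-1.73) lay in the same range. Il7r, the receptor for a survival cytokine of memory cells, did not follow them, at 143 and 118 CPM (0.29, -0.01 to 0.57). The 6 lowest genes by the interval end nearest to 0 also held Coro2a and Lamb3, each without a UMI in T11-Apobec T cells. Against a floor of 3 counts they were at least 7.68-fold and 6.53-fold lower.

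Regulatory T cell genes were higher as a group, 7 of 11 measured and 0 lower, with a median of 1.21. Ikzf2, the transcription factor Helios, was at 319 against 78.5 CPM (2.03, 1.80 to 2.25), and Il2ra, the alpha chain of the IL2 receptor, at 39.2 against 18.2 CPM (1.12). Foxp3, the factor that defines these cells, was at 39.2 and 22.8 CPM (0.80, 0.18 to 1.35) and did not reach 2-fold. After each T cell was thinned to 1000 UMIs, which left out 98 T11-Apobec and 57 KPB25Luv cells, Foxp3 had a UMI in 4.56% (2.45 to 7.67) and 3.15% (2.2 to 4.35) of cells, and in 0 macrophages of either library, which allows up to 0.140% and 0.724% by the exact interval. Cd8a, a chain of the co-receptor of cytotoxic T cells, had one in 29.1% (23.9 to 34.8) and 21.6% (19.2 to 24.1), against 30.3% and 45.8% before thinning. In macrophages, which should lack Cd8a, the thinned shares were 0.114% and 1.77%. Cd4 was found in 5.96% and 5.31% of thinned T cells, close to each other.

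Of 10 measured checkpoint targets and ligands in T cells, which share Pdcd1, Ctla4 and Lag3 with the lists above, 5 were higher and 1 lower (median 1.12). Of 4 helper cytokines and regulators 2 were higher and 0 lower (median 0.92). Of 12 measured activation genes 4 were higher and 1 lower (median 0.52). Nr4a1 (1.94), an early gene of receptor signalling, and Cxcr6 (1.56), a receptor of tissue-resident cells, were among the higher ones, and Il2 was lower at 24.5 against 66.0 CPM (-1.40), with 46.5% of the KPB25Luv UMIs of Il2 from 1 cell. Of 20 proliferation genes 0 were higher and 1 lower (median -0.07), the lower one being Stmn1 (-1.37), which destabilises microtubules. Of 12 genes of MHC class I presentation 1 was higher (median 0.47), and of 14 constitutive proteasome genes 0 were apart in either direction (median -0.18). Of 14 genes that respond to dissociation, 4 were higher and 1 lower (median 0.24). Hspa1a, a heat shock gene, gave the largest of these ratios (3.96) from 67 UMIs in only 4 T11-Apobec cells.

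**Figure D2:**
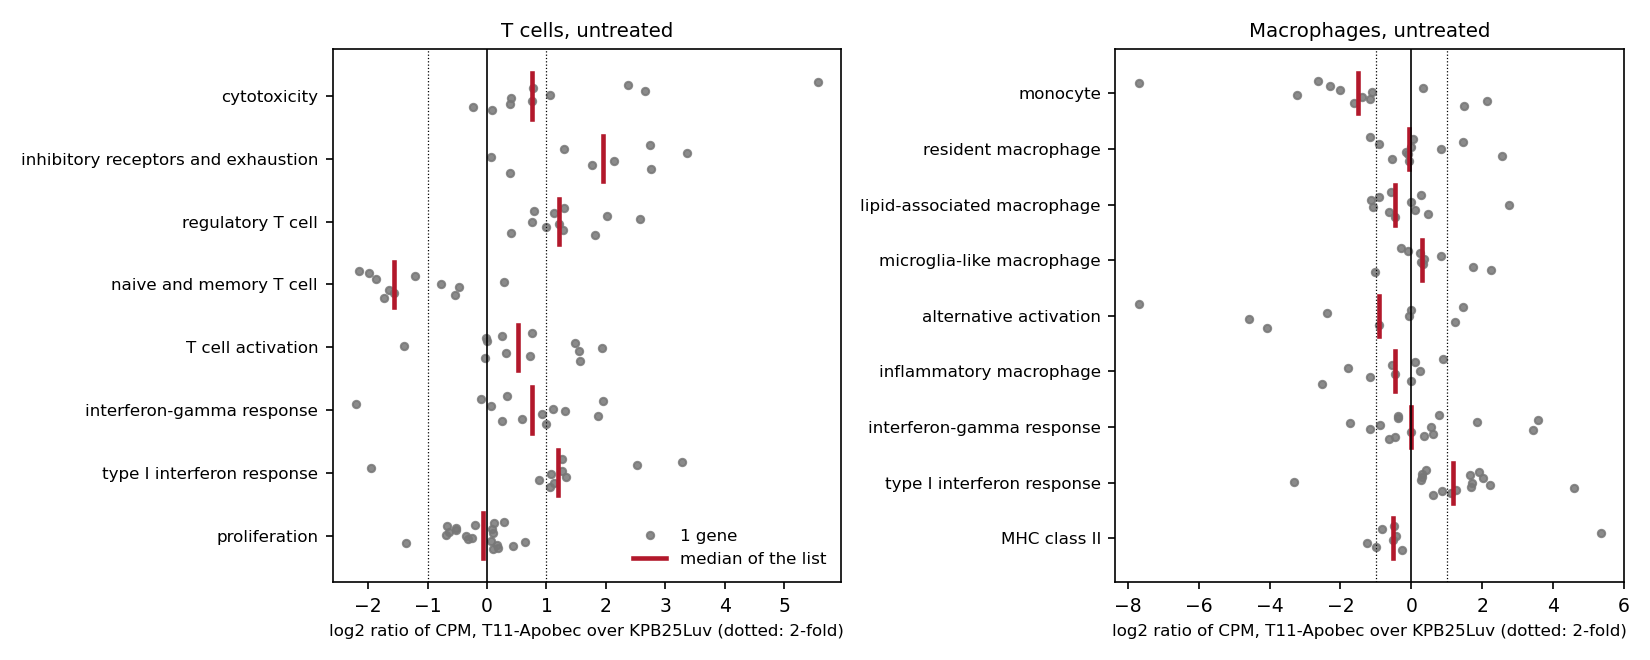
Log2 ratio of CPM, T11-Apobec over KPB25Luv, in T cells (left) and macrophages (right) of the untreated tumours; each grey point is 1 measured gene of a list, each red bar the median of the list, and the dotted lines mark 2-fold. In T cells the inhibitory receptor median lies at 1.95 and the naive and memory median at -1.57, and in macrophages the monocyte median lies at -1.50 and the type I interferon median at 1.19.

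Genes of the type I interferon response were mostly higher in T11-Apobec in T cells and macrophages. The promoters of these genes were read from RefSeq sequence (GRCm38.p6) and searched on both strands for GAAANNGAAA, a pair of GAAA elements 2 bases apart of the kind bound by interferon-activated factors, in the 250 bases before each gene's start. The motif was found for 7 of 13 matched members of the list (53.8%) and for 936 of 27025 genes of the table (3.46%). Ifit1, Isg15, Oas1a and Rsad2 are shown because the results below turn on them. Capitals mark the matches, which read as the reverse complement where they lie on the other strand.
Isg15 (chr4:156200865-156200906, minus strand): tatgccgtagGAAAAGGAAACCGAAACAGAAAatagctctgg
Ifit1 (chr19:34640775-34640823, plus strand): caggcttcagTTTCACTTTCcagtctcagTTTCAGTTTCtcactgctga
Oas1a (chr5:120907526-120907555, minus strand): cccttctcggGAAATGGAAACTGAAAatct
Rsad2 (chr12:26456553-26456582, minus strand): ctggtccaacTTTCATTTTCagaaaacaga
Isg15 holds 3 overlapping matches, Ifit1 and Oas1a 2 each and Rsad2 1. Ifit3, Ifit3b and Bst2 also hold the motif, and these letters are not in the window of Ifit2, Oasl1, Oasl2, Irf7, Ifi44 and Xaf1. A match describes the sequence and was not tested as a site of binding.

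In T cells 8 of 10 measured members of the type I interferon list were higher and 1 lower, with a median of 1.20. Ifit1, which binds viral RNA, was at 52.6 CPM in T11-Apobec and 5.40 CPM in KPB25Luv (3.28, 2.59 to 3.99), and Isg15, a ubiquitin-like modifier, at 88.1 and 36.8 CPM (1.27, 0.85 to 1.65). Ifi27l2a, a mitochondrial interferon-induced protein, had the most UMIs, at 1094 and 434 CPM (1.34). Oas1a, an RNA sensor that makes oligoadenylates, stood apart from its list, at 2.45 against 11.8 CPM (-1.96, -5.35 to -0.36). In macrophages 9 of 16 were higher and 1 lower, with a median of 1.19. Ifit1 was at 15.1 against 3.89 CPM there (1.92), Rsad2, an antiviral enzyme, at 11.1 against 2.29 CPM (2.21), and Irf7, the factor that amplifies interferon production, at 65.4 against 19.7 CPM (1.72). Isg15 (0.41) and Bst2 (0.86) were within 2-fold in macrophages. Oas1a was again the exception, at 3.80 against 38.0 CPM (-3.31, -3.81 to -2.86). In tumour cells 6 of 15 were higher and 2 lower (median 0.86), with Ifit1 at 18.0 against 0.936 CPM (4.24). Only 3 of them were at least as high in tumour cells as in the whole library, of which 1 was higher and 1 lower, and the median was then -0.50. Under that restriction macrophages kept 15 members, with 8 higher and 1 lower (median 1.12). Endothelial cells did not share the difference, with 0 of 9 higher, 1 lower and a median of -0.02, and in neutrophils 4 of the 5 measured were higher (median 1.97).

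In the treated pair of tumours the same list stood differently. Over 16 measured members in treated T cells 1 was higher and 3 lower (median -0.15), and over 13 in treated macrophages 0 were higher and 11 lower (median -1.94). Ifit1 had a ratio of -0.35 in treated T cells and of -2.21 in treated macrophages, against 3.28 and 1.92 in the untreated pair. Oas1a kept its direction, at -2.91 and -3.47. Whether the pairs differ beyond the spread between tumours was not tested, since each of the 4 groups is 1 library.

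**Figure D3:**
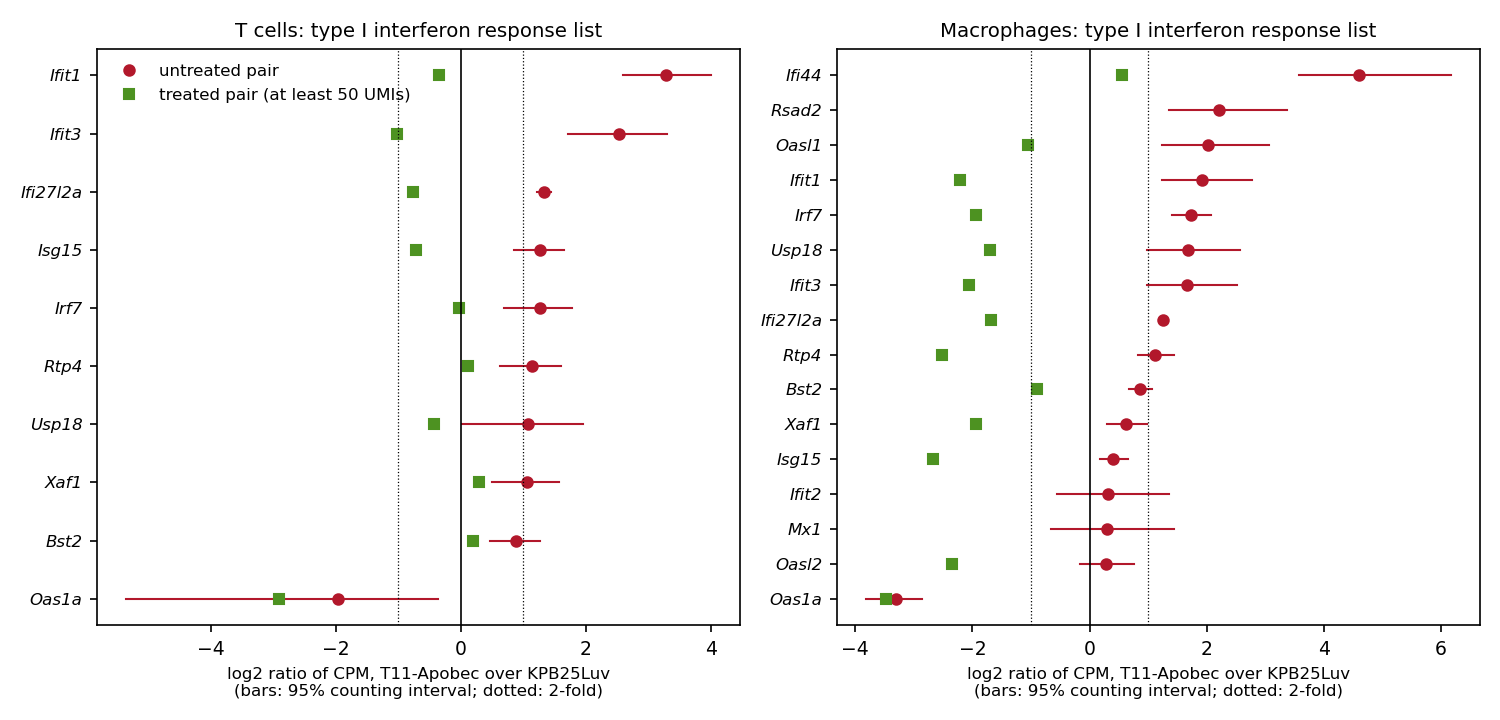
Log2 ratio of CPM, T11-Apobec over KPB25Luv, for measured genes of the type I interferon response list in T cells (left) and macrophages (right); red points with 95% counting intervals are the untreated pair, green squares the treated pair where it held at least 50 UMIs. In macrophages the untreated points lie above 0 except Oas1a (-3.31), and the treated squares lie below 0 except Ifi44 (0.55).

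Over all genes the treated pair repeated part of the T cell differences. In treated T cells 725 of 10596 genes (6.84%) were higher in T11-Apobec and 399 (3.77%) lower. Of the 443 genes higher in the untreated pair, 442 were measured there, of which 131 were higher again and 12 lower. Of the 531 lower ones, 464 were measured, of which 87 were lower again and 52 higher. The lists differed in how far they repeated. Cytotoxicity genes were again higher (7 of 14, 0 lower, median 1.14), with Gzmk at 6.51 and Gzmb at 2.33. Exhaustion genes were mixed (3 of 11 higher, 4 lower, median 0.13), with Pdcd1 at 1.65, Lag3 at 0.40 and Ctla4 at -1.19, and regulatory genes had 1 of 13 higher and 4 lower (median -0.27). Naive and memory genes had 1 of 11 higher and 1 lower (median -0.47).

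NK values of expression use cells whose NK list led by 1 marker (424 T11-Apobec and 66 KPB25Luv cells), because a lead of 2 left under 50 cells in KPB25Luv. That choice was made after the cell counts were seen. Of 3381 measured genes 169 (5.0%) were higher in T11-Apobec and 165 (4.88%) lower, with a median of -0.07. The T marker list summed to 346 CPM in the NK class of T11-Apobec and 1040 CPM in that of KPB25Luv, and its part in the values below was not tested. Klra3 and Klra5, receptors of the Ly49 family, were at 234 against 12.5 CPM (4.01, 2.66 to 6.51) and 138 against 8.32 CPM (3.73, 2.17 to 7.11). Itga1, a collagen-binding integrin of tissue-resident NK-type cells, was at 150 against 8.32 CPM (3.85). These Ly49 genes belong to a cluster of near-identical copies, so that reads may be split between them differently in the 2 strains, which was not tested. Ly6e (-4.63), a membrane protein induced by interferon, was among the lowest.

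Cytotoxicity genes of NK cells were 0 of 13 higher and 4 lower (median -0.35), and the 4 lower ones were granzymes C, D, E and F. Gzmc was at 165 CPM in T11-Apobec and 4129 CPM in KPB25Luv (-4.64), from 993 UMIs in 9 of 66 KPB25Luv cells, with 50.2% in 1 cell. Gzmd, Gzme and Gzmf rested on 1 cell for 92.3%, 96.9% and 97.9% of their KPB25Luv UMIs. These 4 values therefore describe a few cells. Nkg7 (0.12), a granule protein, and Gzmb (0.74, 47.5% of the KPB25Luv UMIs from 1 cell) were within 2-fold. Of 12 NK receptor and maturation genes 1 was higher and 2 lower (median -0.13). Klrb1f was at 219 against 99.8 CPM (1.11), and Ccl5, a chemokine of mature cytotoxic cells, at 1600 against 4924 CPM (-1.62, -1.73 to -1.52). Klrk1, the activating receptor NKG2D, was at 565 and 519.8 CPM (0.12), and proliferation genes were mixed (2 of 19 higher, 5 lower, median -0.03). In treated NK cells 119 of 3299 genes (3.61%) were higher and 136 (4.12%) lower. Of the 169 higher and 165 lower genes of the untreated pair, 116 and 136 were measured there, of which 27 and 22 were apart the same way and 3 and 10 the opposite way. Klra3 (3.84), Klra5 (5.11), Itga1 (4.98) and Ms4a4b (3.33, and 3.48 in the untreated pair) were among those higher in both pairs.

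B cells were few and shallow, with medians of 880 UMIs in T11-Apobec and 2023.5 in KPB25Luv. Of 1793 measured genes 63 (3.51%) were higher and 184 (10.3%) lower, with a median of -0.13. With scaling by the median ratio the counts were 86 and 146. Over the 903 genes at least as high in B cells as in their library they were 54 (5.98%) and 46 (5.09%), with a median of 0.08. Cxcr4, the receptor for CXCL12, was at 429 against 27.0 CPM (3.95, 3.14 to 4.94), and Zbtb20 (2.65), a transcriptional repressor, and Tsc22d3 (2.11), a glucocorticoid-induced gene, were also higher. Ly6e (-2.19) and Ly6a (-2.44) were lower. Follicular B cell genes hardly differed as a group, with 0 of 10 higher and 1 lower (median -0.45), and Ighd, the IgD heavy chain, was at 461 and 602 CPM (-0.38). Of 8 MHC class II genes only H2-Eb1 was 2-fold apart, at 3507 against 174 CPM (4.33, 4.01 to 4.67), while H2-Aa (-0.12) and H2-Ab1 (-0.22), chains of the other classical class II molecule, were within 2-fold. H2 genes differ in sequence between the 2 strains, and the part of strain in the H2-Eb1 values here and in macrophages was not tested. Of 14 constitutive proteasome genes 6 were lower and 0 higher (median -0.69), among them Psmb7 (-1.47, with 28.4% of its KPB25Luv UMIs from 1 cell) and Psma7 (-1.17), but 0 of the 14 were at least as high in B cells as in the library. The plasmacytoid dendritic marker list summed to 201 CPM in the B class of T11-Apobec, with 4 of 8 genes at 0, and to 1779 CPM in that of KPB25Luv, with 5 of 8 at 0, and its part in these values was not tested. In treated B cells 159 of 6164 genes (2.58%) were higher and 266 (4.32%) lower. Of the 63 higher genes 63 were measured there and 11 were higher again, with 0 lower, and of 169 measured lower genes 23 were lower again and 6 higher. H2-Eb1 kept its ratio (4.44), while Cxcr4 (-0.54) and Zbtb20 (0.02) did not.

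Macrophages of the T11-Apobec tumour had less transcript of most monocyte genes and more of a few chemokines. Of 10065 measured genes 597 (5.93%) were higher and 561 (5.57%) lower, with a median of -0.01. Of 12 monocyte genes 2 were higher and 9 lower (median -1.50). Plac8, a gene of newly arrived monocytes, was at 39.6 CPM in T11-Apobec and 159 CPM in KPB25Luv (-2.01, -2.17 to -1.84), and Ly6c2, the classical monocyte surface marker, at 10.0 against 49.2 CPM (-2.30). Chil3, a chitinase-like secreted protein, was at 0.388 against 88.6 CPM (-7.70). Against this direction, S100a4 (2.13) and Ms4a4c (1.49) were higher, and Ccr2, the receptor that draws monocytes into tissue, was at 324 and 258 CPM (0.33). Alternative-activation genes, which share Chil3 with the monocyte list, went both ways, with 2 of 9 higher and 4 lower (median -0.92). Over the 8 at least as high in macrophages as in their library, 2 were higher and 3 lower (median -0.49). Arg1, arginase, was at 120.4 against 625 CPM (-2.38, -2.47 to -2.29), Clec10a, a lectin receptor, at 6.20 against 106 CPM (-4.09), and Mrc1, the mannose receptor CD206, at 176 and 177 CPM (-0.01). Arg1 and Mrc1, often read together, thus differed in their ratios between the tumours. Ccl17 was lower as well (-4.59), with 36% of its KPB25Luv UMIs from 1 cell. Fcrla (-7.29), Tspan32 (-5.61) and the coagulation factor F10 (-5.29) also ranked among the lowest, and Ear1, an RNase without a UMI in T11-Apobec macrophages, was at least 66.96-fold lower against the floor of 3 counts.

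Cxcl13, a chemokine that attracts B cells, was at 120.5 CPM in T11-Apobec macrophages and 0.687 CPM in KPB25Luv macrophages (7.23, 5.90 to 9.73). Cxcl9, the interferon-gamma-induced chemokine that attracts CXCR3-bearing T cells, was at 72.9 against 5.95 CPM (3.59, 3.05 to 4.24), and Cxcl10, which shares that receptor, at 57.3 against 15.8 CPM (1.85). Both CXCR3 ligands were thus higher in T11-Apobec macrophages, while in tumour cells Cxcl10 was lower, as given with those cells. The interferon-gamma list as a whole was mixed, with 3 of 15 higher and 2 lower (median 0.00), Iigp1 being higher (3.44) and Gbp2 lower (-1.73). Of 9 inflammatory genes 0 were higher and 3 lower (median -0.46), with Il1b at 137 against 474 CPM (-1.79, -1.89 to -1.70). Of 7 monocyte and eosinophil chemokines 2 were higher and 1 lower, Ccl12 (1.14), a monocyte attractant, and Ccl6 (-2.33) among them. Resident (2 of 11 higher, 1 lower, median -0.06) and lipid-associated genes (1 of 11 higher, 2 lower, median -0.47) gave no common direction. Igf1, a growth factor, was at 32.0 against 5.27 CPM (2.57), Lpl, lipoprotein lipase, at 37.9 against 5.5 CPM (2.76), and Apoe, the apolipoprotein, at 17742 and 26539 CPM (-0.58). In this class H2-Eb1 was again the gene of MHC class II that differed most, at 2554 against 62.3 CPM (5.36, 5.19 to 5.54), and Cd74, the invariant chain, was lower at 4657 against 11168 CPM (-1.26). The neutrophil list summed to 123 CPM in T11-Apobec macrophages and 224 CPM in KPB25Luv macrophages, the T list to 29.1 and 204 CPM, and their part in these values was not tested.

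In the treated pair macrophages again differed in monocyte genes (0 of 11 higher, 9 lower, median -2.45). Alternative-activation genes were 1 of 9 higher and 6 lower there (median -2.11). There 1038 of 7850 genes (13.2%) were higher and 520 (6.62%) lower. Of the genes higher in the untreated pair 281 were measured, of which 124 were higher again and 12 lower, and of the lower ones 312 were measured, of which 142 were lower again and 22 higher. Cxcl13 (8.12), Cxcl9 (2.26), Chil3 (-4.98), Arg1 (-2.11) and H2-Eb1 (5.99) kept their directions. Proliferation genes did not compare alike between the pairs, with 0 of 20 higher and 1 lower in the untreated pair (median -0.20) and 18 of 20 higher in the treated pair (median 2.31). Only 1 of the 20 was at least as high in untreated macrophages as in their library. The treated pair held only 84 macrophages of KPB25Luv, against 696 of T11-Apobec.

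Neutrophils of the T11-Apobec tumour were shallow, with a median of 671 UMIs. Of 3195 measured genes 163 (5.1%) were higher and 832 (26.0%) lower, and the median gene stood at -0.45, so that every ratio in this class is to be read against that shift. With scaling by the median ratio the counts were 278 and 555. S100a8, a calprotectin gene used as a marker, stood at 53553 CPM in the T11-Apobec class and 17246 CPM in the KPB25Luv class, and its partner S100a9 at 52185 and 19402 CPM. Activation genes were higher in 8 of 13 cases and lower in 1 (median 1.03). Ccl4, a chemokine for lymphocytes and monocytes, was at 4162 against 367 CPM (3.5, 3.33 to 3.68), and Ccl3, its relative, at 3845 against 1328 CPM (1.53). Acod1, which makes itaconate, was at 438 against 34.0 CPM (3.68), and Il1b was level at 9454 and 9405 CPM (0.01). Granule and maturation genes went both ways, 3 of 11 higher and 5 lower (median -0.25). Mmp8, the granule collagenase, was at 312 against 69.9 CPM (2.16), and Mmp9, the granule gelatinase, at 89.8 against 555 CPM (-2.59). Camp, Ngp and Ltf, genes of immature granules, were lower, but 86.8%, 85.3% and 66.3% of their KPB25Luv UMIs came from 1 cell each. Siglecf, a sialic acid receptor known from eosinophils and from some tumour neutrophils, was at 5.28 against 215 CPM (-4.77, -10.66 to -2.86), from 1 UMI in T11-Apobec. Proliferation genes were 0 of 14 higher and 10 lower (median -1.45), from 1 to 8 UMIs in T11-Apobec for each lower gene, and only 1 of the 14 was at least as high in neutrophils as in the library (0.41). The mesenchymal tumour list summed to 623 CPM in T11-Apobec and 240.1 CPM in KPB25Luv neutrophils and the epithelial list to 26.4 and 1137 CPM, and their part was not tested.

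Endothelial cells showed the fewest differences of the host classes by share. Of 5477 measured genes 197 (3.6%) were higher and 206 (3.76%) lower, with a median of -0.02. Of 14 genes of sprouting tip cells 6 were higher and 0 lower (median 0.56). Apln, the tip cell ligand apelin, was at 524 CPM in T11-Apobec and 76.9 CPM in KPB25Luv (2.76, 2.39 to 3.17), and Esm1, a proteoglycan of tip cells, at 435 against 88.7 CPM (2.29). Pgf, placental growth factor, was at 205 against 18.3 CPM (3.44), and Angpt2, which destabilises vessels, at 197 against 74.3 CPM (1.40). Other members were within 2-fold, among them Kdr (-0.49), the main VEGF receptor, Dll4 (0.14) and Plvap (-0.45). For Esm1 and Apln, the KPB25Luv values rest on 18 and 15 cells with a UMI, with 39.7% and 28.8% of the UMIs from 1 cell. Capillary genes were 0 of 11 higher and 2 lower (median 0.12), the lower ones being Aqp1 (-1.21), a water channel, and Cd300lg (-2.49). Of 20 proliferation genes 4 were higher and 0 lower (median 0.54), among them Cdc20 (1.76) and Hmgb2 (1.38). Lrg1, a secreted glycoprotein of inflamed endothelium, was at 190 against 1388 CPM (-2.87, -3.05 to -2.69). The pericyte list summed to 87.9 CPM in T11-Apobec and 252 CPM in KPB25Luv endothelium and the mesenchymal tumour list to 1481 and 1437 CPM, and the part of either was not tested.

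The tumour cells differed in 4470 genes, by count more than any host class, the next by count being macrophages with 1158. Here the comparison is of cells named by different lists, the mesenchymal list in T11-Apobec and the epithelial list in KPB25Luv, so a part of the difference follows from the rule, and list counts of epithelial and mesenchymal genes are a description of the 2 classes. Of 12350 measured genes 1957 (15.8%) were higher and 2513 (20.3%) lower, with a median of -0.07. By share of measured genes neutrophils came next, with 5.10% higher and 26.0% lower, while macrophages had 5.93% and 5.57%. Epithelial junction genes were 0 of 13 higher and 10 lower (median -6.56). Cdh1, E-cadherin, was at 0.150 CPM in T11-Apobec and 57.4 CPM in KPB25Luv (-8.48), and Cldn3, a tight junction claudin, at 0.0428 against 261 CPM (-12.25), whereas Jup (0.42) and Tjp1 (0.68), which junctions of many cell types share, were within 2-fold. St14 and Dsp had no UMI in T11-Apobec tumour cells and were at least 265-fold and 102-fold lower against the floor of 3 counts. Basal genes went both ways (2 of 5 higher, 2 lower, median -0.96). Acta2, smooth muscle actin, was at 223 against 2.67 CPM (6.38), and Krt15 was without a UMI in T11-Apobec but rested in KPB25Luv on 5 cells, with 95.7% of its UMIs in 1. Of 14 genes of mesenchymal transition 8 were higher and 2 lower (median 1.42). Zeb1, a repressor of epithelial genes, was at 96.0 against 5.16 CPM (4.21), but Twist2, a factor of the same kind, was lower at 9.57 against 81.8 CPM (-3.09). Vim, vimentin, was abundant in both, at 2533 and 1395 CPM (0.86), and Cdh2, N-cadherin, was at 3.51 and 19.9 CPM (-2.50).

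Collagen and matrix genes were 11 of 16 higher and 0 lower (median 4.06). Col1a2, a chain of type I collagen, was at 908 against 4.57 CPM (7.63, 7.39 to 7.89), and Col3a1, type III collagen, at 600.0 against 14.7 CPM (5.35). Members of the basement membrane and of type VI collagen differed less, with Col4a1 at 0.20, Col4a2 at 0.55 and Col6a1 at 0.57. Stmn2, a microtubule regulator of neurons, was at 781 CPM in T11-Apobec and had 1 UMI in KPB25Luv (13.87, 11.98 to 19.76), and Sox11, a developmental transcription factor, had 2286 UMIs and 0, at least 471-fold higher against the floor of 3 counts. In the other direction Wfdc2, a secreted protease inhibitor of epithelia, was at 0.343 against 2181.7 CPM (-12.59), and Gstt1, a glutathione transferase, at 0.150 against 849.9 CPM (-12.37).

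**Figure D4:**
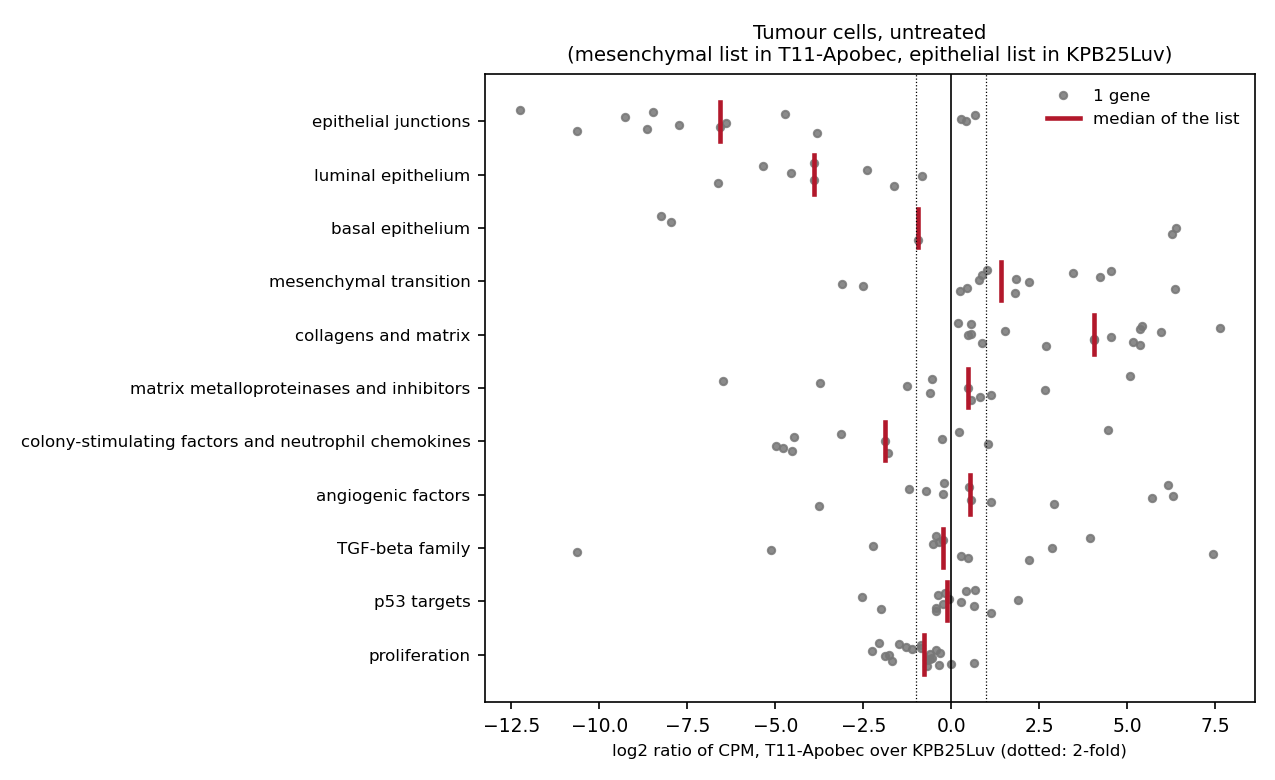
Log2 ratio of CPM in tumour cells of the untreated tumours, T11-Apobec (mesenchymal list) over KPB25Luv (epithelial list); each grey point is 1 measured gene, each red bar the median of its list, dotted lines mark 2-fold. Junction genes (median -6.56) lie far to the left and collagens (median 4.06) to the right, while p53 targets (median -0.12) lie around 0.

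Secreted factors of the tumour cells were compared because the shares of immune cells differed. Colony-stimulating factors and neutrophil chemokines were 2 of 11 higher and 7 lower (median -1.87). Over the 9 at least as high in tumour cells as in the library, 2 were higher and 5 lower (median -1.81). Cxcl5, a neutrophil chemokine of epithelia, was at 0.921 CPM in T11-Apobec and 29.6 CPM in KPB25Luv (-4.99, -5.48 to -4.56), and Cxcl2 at 3.60 against 31.8 CPM (-3.14). Cxcl1, which acts on the same receptor, was at 93.9 and 80.2 CPM (0.23), the most abundant of the 3 in both. Csf3, the growth factor of neutrophils, was at 0.514 and 1.91 CPM (-1.87), from 24 and 55 UMIs. In neutrophils Cxcl2 stood at 12242 CPM in T11-Apobec and 6259 CPM in KPB25Luv. The neutrophil list summed to 11.2 CPM in T11-Apobec and 123 CPM in KPB25Luv tumour cells, and its part in these values was not tested. Il34 (1.06), which with Csf1 signals to macrophages through CSF1R, was higher and Csf1 was not (-0.25). Cxcl16, the ligand of CXCR6, was at 6.12 against 141 CPM (-4.53). Of 7 monocyte and eosinophil chemokines 1 was higher and 3 lower (median -0.26), Ccl2, the main monocyte attractant, being lower at 39.5 against 114 CPM (-1.53). Of these 7, 0 were at least as high in tumour cells as in the whole library, and 66.9%, 35.6% and 27.7% of the T11-Apobec UMIs of Ccl8, Ccl11 and Ccl6 came from 1 cell each. Any link between these levels and the shares of cells was not tested. Of 12 angiogenic factors 5 were higher and 2 lower (median 0.53), with Pgf at 60.8 against 0.832 CPM (6.16) and Vegfa level at 35.4 and 40.9 CPM (-0.21). Of 13 TGF-beta family genes 4 were higher and 3 lower (median -0.24, and 0.48 over the 7 at least as high in tumour cells as in the library), where Bmp8a (7.43) and Tgfb2 (3.94) were higher and Inhba, a chain of activin, lower at 35.2 against 164 CPM (-2.22).

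Presentation genes of the tumour cells were 2 of 12 higher and 2 lower (median -0.43), and only 1 of them was at least as high in tumour cells as in the library. B2m, the shared light chain of MHC class I, was at 3263 against 821 CPM (1.99, 1.97 to 2.01), Tapbp, which loads peptides, at 76.3 against 225 CPM (-1.56), and H2-K1 at 304 against 573 CPM (-0.92). H2 genes differ in sequence between the 2 strains, and the effect of this on read mapping was not tested. Interferon-gamma genes were 4 of 15 higher and 1 lower (median 0.24), of which only 2 were that high, with Iigp1 at 23.8 against 1.0 CPM (4.54) and Cxcl10 at 18.4 against 55.7 CPM (-1.60). Proliferation genes were 0 of 20 higher and 8 lower (median -0.78). Mki67, a protein of cycling cells, was at 25.1 against 104 CPM (-2.05), and after thinning to 1000 UMIs it had a UMI in 2.04% (1.60 to 2.57) of T11-Apobec and 9.62% (8.06 to 11.4) of KPB25Luv tumour cells. Top2a, which untangles DNA in dividing cells, had one in 6.09% and 18.4%. Before thinning the shares for Mki67 were 18.3% and 61.1%, at medians of 12078 and 22153.5 UMIs. Targets of p53 were 2 of 14 higher and 2 lower (median -0.12), Cdkn1a, the cell cycle inhibitor p21, being at 30.9 and 19.4 CPM (0.67). Hypoxia and glycolysis genes centred near 0 (4 of 18 higher, 2 lower, median -0.05) but held wide differences, with Egln3 (6.36), Adm (5.59) and Car9 (3.94) higher in T11-Apobec, and Eno1 (-2.2) and Pfkp (-1.92), enzymes of glycolysis, lower. Of 3 measured APOBEC and AID deaminases 0 were higher and 1 lower (median -0.38). Apobec3, at 32.4 and 21.9 CPM (0.57), and Apobec1, at 4.07 and 5.30 CPM (-0.38), were within 2-fold. Dissociation genes were 7 of 16 higher and 0 lower (median 0.55) and Fos, an immediate early gene, was at 390 against 93.7 CPM (2.06). The part of tissue handling was not tested.

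A small set of genes differed the same way in every host class. Of 1533 genes measured in all 6 host classes, 6 (0.391%) were at least 2-fold higher in T11-Apobec in each and 13 (0.848%) at least 2-fold lower in each. The higher ones were Anxa5, mt-Nd3, Rpl36al, Rps28, Rps27rt and S100a4. S100a4, a calcium-binding protein, ranged from 338.8 to 2419 CPM over the T11-Apobec host classes and from 56.1 to 257 CPM over those of KPB25Luv, and stood at 5694 against 243 CPM in tumour cells. In the treated pair its ratio was 2.46 in T cells, 3.23 in B cells and 1.41 in NK cells. In treated macrophages its ratio was -0.48, against 2.13 in the untreated ones. Over the same treated classes Anxa5 stood between 1.13 and 1.74, Rps27rt between 0.95 and 1.37, and Rpl36al between 0.57 and 0.79. There mt-Nd3 stood between -0.25 and 0.44, and Rps28 between -0.15 and 0.08. The lower ones included Wfdc2, Gdpd3, Gm10260, Eno1, Ly6e, Htra1, Igfbp6, Rpl35, Adrm1, Gm10076, Phb and Gm10073. For 4 of the 6 higher and 6 of the 13 lower genes, the tumour cells of the library with more of the gene held more of it than any host class there, as Wfdc2 did with 2181.7 CPM in KPB25Luv tumour cells against 287 to 567 CPM in its host classes. Gdpd3, a phosphodiesterase, was different in this respect, at 17.8 CPM in KPB25Luv tumour cells against 190 to 1049 CPM in its host classes. In T11-Apobec Gdpd3 stayed between 4.63 and 15.7 CPM in all host classes, and in treated T cells its ratio was -5.76. Other genes of the lower set did not repeat there: Htra1 stood at 1.68 and Igfbp6 at 2.37 in treated T cells, and Htra1 at 1.49 in treated macrophages.

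Several of these genes have a near-identical copy, and sums with that copy, chosen after their values were seen, changed some ratios and left others 2-fold apart. In T cells Rps18 with Gm10260 was at 3777 and 5714 CPM (-0.60). Tpm3-rs7, which was among the highest genes in T cells (4.23) and endothelium (3.65), was level when summed with Tpm3, at 460.2 and 475 CPM in T cells (-0.05, -0.21 to 0.11). Rps27 with Rps27rt stayed 2-fold apart in B cells (1.41), NK cells (1.05), neutrophils (1.02) and tumour cells (1.20), and stood at 0.63 in T cells, 0.93 in macrophages and 0.57 in endothelium. Rpl36a with Rpl36al stood between 0.28 and 0.84 over the host classes. Eno1, an enzyme of glycolysis, hardly changed with its copy Eno1b added (-2.82 in T cells, against -2.85). Counts of such genes are uncertain where reads can be given to either copy, and how the 2 strains' sequences map to the shared reference was not tested.

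**Figure D5:**
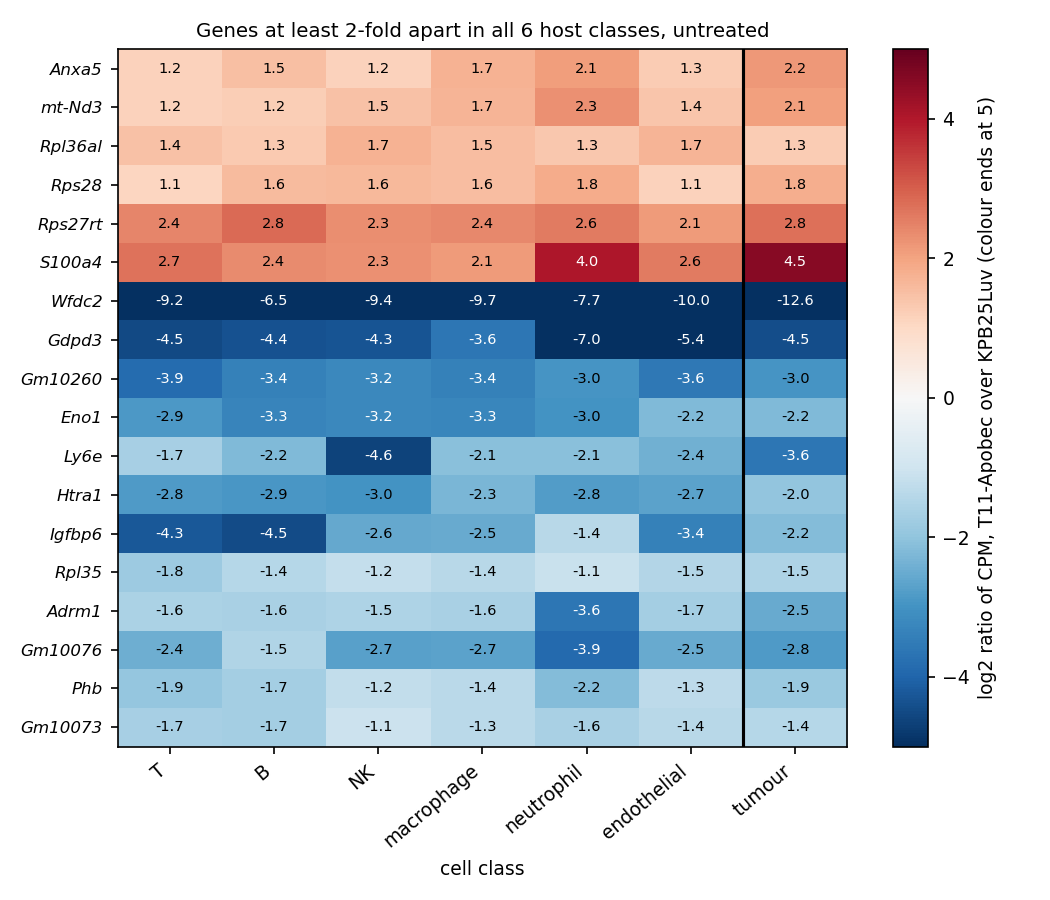
Log2 ratio of CPM, T11-Apobec over KPB25Luv, of genes at least 2-fold apart in the same direction in all 6 host classes of the untreated tumours, with tumour cells in the last column; red is higher in T11-Apobec, blue lower. S100a4 is higher throughout (2.13 in macrophages, 4.55 in tumour cells); Wfdc2 had 0 UMIs in 5 T11-Apobec host classes, where the drawn number rests on the 0.5 added counts and is no bound.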

How the data were processed

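Dissociated tumours were profiled with droplet 3' single-cell RNA sequencing, 1 library per group. The deposited matrices hold raw UMI counts per gene and cell barcode, made by the authors with Cell Ranger 3.0.2 per the file headers, on mm10 per the submitters' processing notes. They list 31054 features. The members, marker lists and gene lists used here were chosen with earlier results of these data known; Mest, Ptn and the neomycin resistance gene entered the tumour markers that way.

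Cells were filtered and put into classes by 13 lists of 8 markers, as the results state. Counts were summed per class and library and scaled to CPM, with exact Poisson intervals, and ratios have exact conditional intervals. With 1 library per group there is no test between conditions. Where a library had 0 counts, a bound uses a floor of 3 counts per library. Genes were described by 43 lists of 496 genes, of which 2 are absent from the files.

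Named genes are, per class, the 6 higher and the 6 lower genes whose intervals lay farthest from 0, among genes with at least 50 UMIs in the higher library, a UMI in at least 5% of its class cells and a class CPM at or above the library CPM. That ranking left out class markers, unnamed models, histone and H2 genes, antigen receptor genes of T and B cells, sex-specific genes, and those of haemoglobin, ribosomal proteins and mitochondria. List members with the most UMIs or the largest ratios, therapy targets and genes apart in all host classes were named besides. For expression in NK cells a lead of 1 marker was chosen after the cell counts were seen. Doublets were not removed from the main values; an alternative left out the cells with the highest Scrublet scores (0.8% per 1000 cells). Other alternatives changed the marker lead, the number of markers, the mitochondrial and gene limits, the UMI minimum, the scaling and the depth per cell. Computation used Python 3.11.15, numpy 2.4.6, pandas 2.3.3, scipy 1.17.1, scanpy 1.11.5 and matplotlib 3.10.9, and the comparison was tested on simulated data. Results for some genes are not reported here.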

Additional observations from a re-analysis of the deposited data

Results flagged for a closer look

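Gzmc in the NK class differed in direction between the pairs of libraries, with a log2 ratio of T11-Apobec over KPB25Luv of 2.64 in the treated pair and -4.64 in the untreated pair. The difference between the pairs was not tested, and 50.2% of the untreated KPB25Luv UMIs came from 1 cell.

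The untreated T11-Apobec library held 59 cells of the epithelial list, which no comparison above uses. They carried Krt19, a luminal keratin, at 7579 CPM and Krt8 at 5068 CPM, while Gstt1, high in KPB25Luv tumour cells, stood at 7.01 CPM. The untreated KPB25Luv library held 50 cells of the mesenchymal list, likewise unused. They carried Col1a1 at 402 CPM and Col3a1 at 443 CPM beside Krt8 at 1309 CPM and Gstt1 at 833 CPM, and had 0 UMIs of Stmn2. Whether these cells are malignant, host or mixed was not tested.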

How the results depend on the processing

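No paired analysis was possible because each group is 1 library and the labels give no replicate numbers. With 1 library per group the spread between tumours was not measured, and shallow classes (B cells and neutrophils) limit what can be seen. The limits on how far a value may shift were set after the files were seen. Counts of genes 2-fold apart were 974 in T cells, 247 in B cells, 334 in NK cells, 1158 in macrophages, 995 in neutrophils, 403 in endothelium and 4470 in tumour cells. The genes measured numbered 7975, 1793, 3381, 10065, 3195, 5477 and 12350 in that order. After thinning cells to 1000 UMIs the counts were 300, 58, 132, 554, none, 103 and 2043. The genes measured were then 3334, 482, 1185, 5582, none, 1140 and 7270. With at least 200 UMIs per gene the host classes gave 297, 43, 68, 501, 234 and 99. The genes measured were then 3827, 370, 920, 6719, 918 and 1914. Without a minimum the 7 classes gave 4866, 4220, 3693, 4341, 4779, 3795 and 8711. The genes measured were then 15404, 11850, 12710, 16343, 13116, 13698 and 18698. With the class CPM at least at the library CPM the host classes gave 478, 100, 216, 509, 529 and 260. The genes measured were then 3978, 903, 1936, 4137, 1551 and 3390. With the interval end past 2-fold the host classes gave 247, 61, 77, 592, 224 and 126, over the genes measured in the main setting. Neutrophil counts could not be had with at least 500 genes per cell or after thinning. Without the highest Scrublet scores, macrophages had 369 genes higher and 547 lower. Log2 share ratios were 2.00 for NK cells, 1.41 for macrophages and 0.47 for tumour cells with a lead of 1 marker. In the main setting the ratios were 2.47 for NK cells and 1.61 for macrophages. Those of T cells, B cells and neutrophils were -2.28, -0.83 and -2.72 there. The T cell ratio was -2.11 with at most 5% mitochondrial UMIs. With at least 500 genes per cell it was -2.49, that of B cells -2.19 and that of neutrophils -5.2. List medians reversed for neutrophil proliferation (0.10) and tumour checkpoint genes (0.029) with at least 200 UMIs per gene, and for endothelial collagens (-0.15) without a minimum; fewer or more genes enter these lists. Of the other list medians, 38 shifted by more than the set limit and 869 did not.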
